A study of Mus musculus with 4 samples.

Results

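Aldehyde dehydrogenases are NAD(P)+-dependent enzymes that oxidise aldehydes to carboxylic acids. Some make retinoic acid from retinaldehyde, some clear acetaldehyde and products of lipid peroxidation, and others act on fatty aldehydes or on aldehydes of amino acid breakdown. High activity of the family is widely used to enrich stem and progenitor cells, those of bone marrow included. The mRNA levels of 10 family members are described here, of 21881 genes in the table. Their rows were found by symbol, and all 10 were present. The 10 were selected on FPKM differences between NR6A1 and vector within each clone, with earlier results of these libraries known, so values of that contrast are given for them as a description, with no test.

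The cells were immortalised clonal lines of C57BL/6 mouse mesenchymal stem cells, fibroblast-like cells of adult bone marrow. In the NR6A1 group (2 libraries), clone 6 and clone 12 each carried a pMMP-puro retrovirus for Flag-HA-NR6A1. In the vector group (2 libraries), the same 2 lines carried the empty pMMP-puro retrovirus. All 4 cultures had the Dicer f/f genotype, with Dicer functional, were infected with a puromycin-resistant virus, and grew in alpha-MEM with 10% serum. Each line descends from 1 cell and gave 1 library per virus. For the virus, p-values therefore rest in part on how alike the difference was in the 2 lines. For the clone, they rest in part on how alike the difference was with the 2 viruses. In both fits the p-values and SE also rest on a variance estimated over all genes tested. That variance counts for 2.90 degrees of freedom, against 1 from the gene itself. Neither p-value measures the spread between repeat cultures or between further lines. NR6A1 (GCNF) belongs to the nuclear receptors without a known ligand and mostly represses genes in embryonic and germ cells.

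Values are FPKM, fragments scaled to transcript length and to the mapped fragments of the library, which can be compared between genes. Steps in the lowest values put the depth at an estimated 20.5 to 24.2 M reads per library (M, 1e6). Each transcript was counted as 220 bases shorter, a shift fitted to the same steps. On that footing 1 FPKM equals 36.5 to 43.2 reads for a transcript of 2000 bases. Nr6a1 was at 783 and 598 FPKM in the NR6A1 libraries of clone 6 and clone 12, against 4.18 and 2.80 FPKM in the vector libraries. Of 11 mesenchymal stem cell and fibroblast markers 10 averaged at least 1 FPKM, while Thy1 did not exceed 0.0297 FPKM in any library. Of 12 blood, endothelial and epithelial markers only Cd14 averaged at least 1 FPKM, at 5.47 to 8.35 FPKM, and the summed level of the list was 5.59 to 8.58 FPKM.

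The members differed widely in level. Aldh2, the mitochondrial enzyme that oxidises acetaldehyde, had the highest mRNA level, at 183 ± 70.5 FPKM over the 4 libraries (mean ± SD). Aldh9a1, which acts on aminoaldehydes of carnitine and GABA synthesis, came next at 37.5 ± 2.77 FPKM. The ranges of Aldh2 (124 to 269 FPKM) and Aldh9a1 (33.4 to 39.5 FPKM) did not overlap each other or those of any lower member. Then came the fatty aldehyde dehydrogenase Aldh3a2 (14.0 to 21.97 FPKM), Aldh3a1, a major soluble protein of the cornea (3.63 to 21.3 FPKM), Aldh7a1, of lysine breakdown (9.70 to 12.4 FPKM), and Aldh4a1, of proline breakdown (9.09 to 11.1 FPKM). Neighbours in that order had overlapping ranges. Within each library, however, Aldh3a2 was the highest of those 4 genes and Aldh7a1 stood above Aldh4a1. Only Aldh3a1 changed place: it was the lowest of the 4 in both libraries of clone 6 and came next after Aldh3a2 in both of clone 12.

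The other 4 members averaged under 1 FPKM and did not enter the tests. They were the mitochondrial paralogue Aldh1b1 (0.103 to 0.255 FPKM) and the retinaldehyde dehydrogenases Aldh1a3 (0.0294 to 0.369 FPKM), Aldh1a1 (0.0475 to 0.161 FPKM) and Aldh1a2, which was listed at 0 in every library. For a transcript of 2000 bases these FPKM values equal 4 to 9 inferred reads of Aldh1b1, 1 to 14 of Aldh1a3 and 2 to 6 of Aldh1a1. A value of 0 in such a table can also be a failed estimate, so Aldh1a2 is only said to be listed at 0. The 3 enzymes that make retinoic acid in the embryo thus summed to 0.421 and 0.210 FPKM in the NR6A1 libraries of clone 6 and clone 12, against 0.205 and 0.0769 FPKM in the vector libraries.

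**Figure D1:**
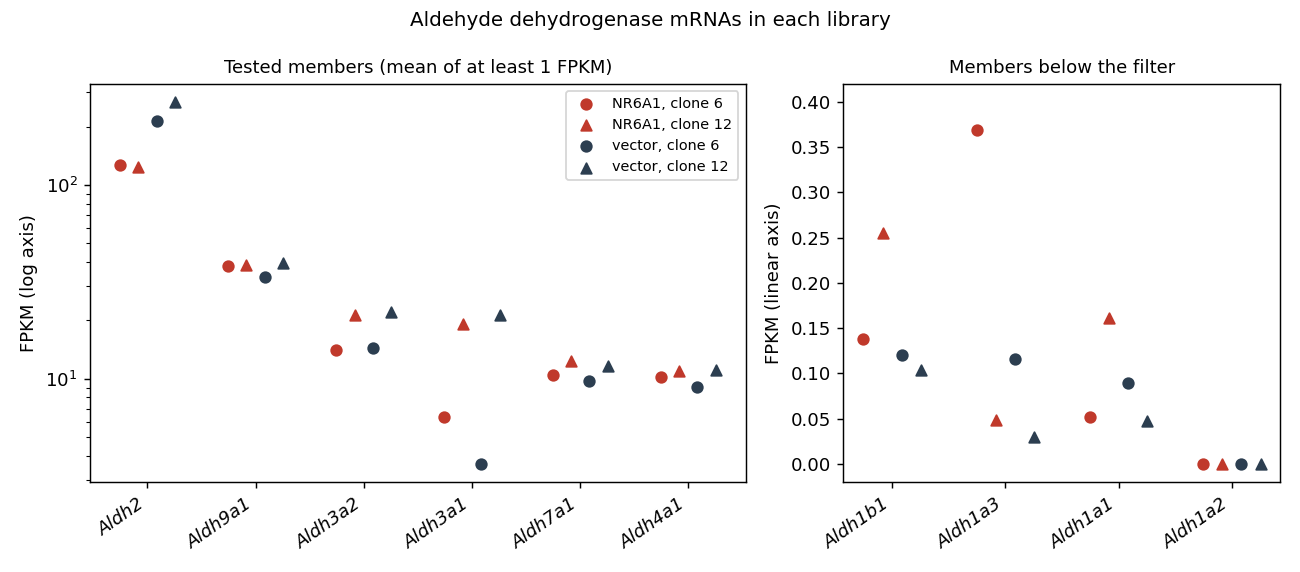
FPKM of the 10 members in the 4 libraries, 1 point per library (red, NR6A1; dark, vector; circles, clone 6; triangles, clone 12), on a log axis for the 6 tested members and on a linear axis for the 4 below the filter. Aldh2 stands above 124 FPKM in every library, and its NR6A1 points lie below its vector points.

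Promoter windows of 250 bases before to 50 bases after the annotated start were given by RefSeq (build GRCm38.p6, not the build of the expression table) for 6 of the 10 members, in 7 windows. Bases upstream of the start are printed for Aldh1a2, the member listed at 0, and for Aldh9a1 and Aldh3a2, the most abundant members with a window. Capitals mark TGACNNNGC, the core of the antioxidant response element, at which NRF2 acts.
Aldh1a2 (chr9:71215539-71215788, + strand): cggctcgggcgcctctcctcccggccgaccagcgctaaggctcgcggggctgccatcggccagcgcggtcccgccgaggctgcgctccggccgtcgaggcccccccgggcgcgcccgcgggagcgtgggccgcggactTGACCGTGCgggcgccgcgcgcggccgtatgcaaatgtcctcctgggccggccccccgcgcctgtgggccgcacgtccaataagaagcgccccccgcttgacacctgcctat
Aldh9a1 (chr1:167349741-167349990, + strand): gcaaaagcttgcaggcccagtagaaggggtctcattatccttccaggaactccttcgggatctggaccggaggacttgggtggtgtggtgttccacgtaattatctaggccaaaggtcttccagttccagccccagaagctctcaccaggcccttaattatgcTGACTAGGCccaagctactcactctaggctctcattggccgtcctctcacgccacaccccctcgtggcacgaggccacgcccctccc
Aldh3a2 (chr11:61267187-61267436, - strand): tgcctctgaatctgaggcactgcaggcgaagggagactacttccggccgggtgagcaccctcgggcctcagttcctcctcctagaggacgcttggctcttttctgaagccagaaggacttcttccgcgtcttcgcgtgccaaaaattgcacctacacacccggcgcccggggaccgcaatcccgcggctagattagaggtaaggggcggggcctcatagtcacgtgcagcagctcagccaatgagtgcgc

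The promoters differed widely in base composition. The whole window of Aldh1a2 held 78% G and C and 50 CpG dinucleotides, that of Aldh3a2 61.7% and 21 CpG, and that of Aldh9a1 59% and 9 CpG, while the median over all 32851 windows was 52.7% and 7 CpG. Aldh1a1, near 0 FPKM, had 43.3% and 3 CpG in one window and 47% and 1 CpG in the other. Of the 7 windows, that of Aldh1a2, listed at 0, held the most CpG and the second of Aldh1a1 the fewest. Whether base composition bears on the mRNA levels was not tested. The core TGACNNNGC, searched on both strands, was in 2 of the 7 windows (Aldh1a2, 112 bases before the start, and Aldh9a1, 87 bases before it) and in 12.4% of all windows. The nuclear receptor half-site AGGTCA was in none of the 7 and in 16.3% of all windows. TCAAGGTCA, which contains that half-site, was in none of the 7 and in 0.423% of all windows, and AGGTCA repeated without a spacer, the element bound by NR6A1, was in none of the 7 and in 0.00609%. A match or its absence describes these letters in these windows only. Aldh2, Aldh3a1, Aldh1a3 and Aldh7a1 had no window, so their promoters were not searched.

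Between the viruses, Aldh2 was the tested member that stood apart. It was at 127 and 124 FPKM in the NR6A1 libraries of clone 6 and clone 12, against 214 and 269 FPKM in the vector libraries. Both NR6A1 values lay below both vector values, at 59.1% of vector in clone 6 and 46.3% in clone 12. The group means were 126 ± 1.4998 FPKM with NR6A1 and 241 ± 38.7 FPKM with vector (SD, n = 2 each), and the difference was -0.75 in clone 6 and -1.10 in clone 12 on the log2(FPKM + 1) scale. The clones lay close together with NR6A1 and further apart with vector. In these bulk libraries, fewer cells with the mRNA and less mRNA per cell cannot be told apart.

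The other 5 tested members differed little between the viruses or went opposite ways in the clones. Aldh9a1 was at 38.4 and 38.7 FPKM with NR6A1 in clone 6 and clone 12, against 33.4 and 39.5 FPKM with vector. Aldh3a2 was at 14.0 and 21.3 FPKM with NR6A1, against 14.4 and 21.97 FPKM with vector, a log2 difference of -0.04 in each clone. Aldh3a2 thus followed the clone rather than the virus. Aldh7a1 was at 10.5 and 12.4 FPKM with NR6A1, against 9.70 and 11.6 FPKM with vector (log2 difference 0.10 in clone 6 and 0.09 in clone 12). Aldh4a1 was at 10.1 and 10.995 FPKM with NR6A1, against 9.09 and 11.1 FPKM with vector. For these 4 genes, as for Aldh3a1, the NR6A1 and vector values overlapped.

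Aldh3a1 had the widest difference between the clones in its response. It was at 6.35 FPKM with NR6A1 and 3.63 FPKM with vector in clone 6 (log2 difference 0.67), and at 19.1 FPKM with NR6A1 and 21.3 FPKM with vector in clone 12 (-0.15). The difference between the clones' responses was not tested, since no residual would be left. Among the members below the filter, Aldh1a3 was at 0.369 and 0.0481 FPKM with NR6A1, against 0.115 and 0.0294 FPKM with vector, which equal 14 and 2 inferred reads with NR6A1 and 5 and 1 with vector. Aldh1b1 was at 0.138 and 0.255 FPKM with NR6A1, against 0.1205 and 0.103 FPKM with vector, and Aldh1a1 at 0.0516 and 0.161 FPKM with NR6A1, against 0.0897 and 0.0475 FPKM with vector. Both NR6A1 values of Aldh1b1 lay above both vector values (5 and 9 inferred reads with NR6A1, against 5 and 4 with vector), while those of Aldh1a3 and Aldh1a1 overlapped. These 3 genes did not enter the tests.

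**Figure D2:**
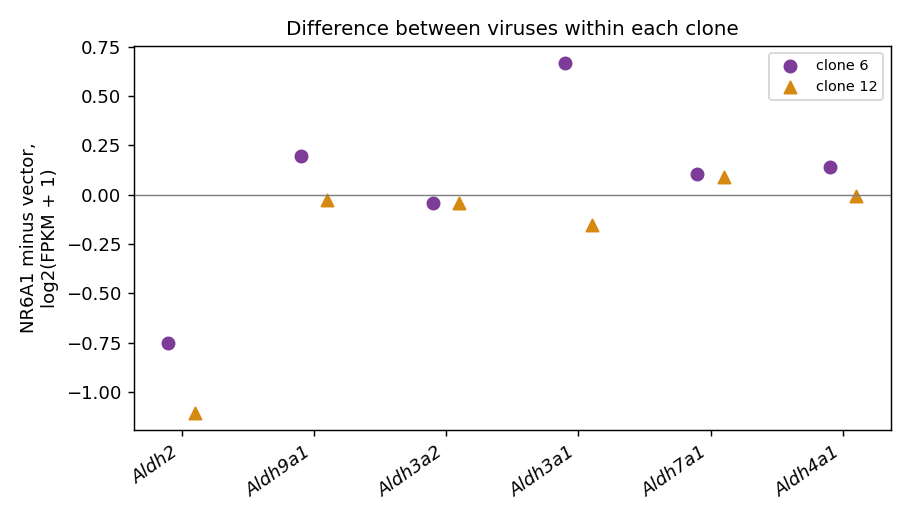
NR6A1 minus vector on the log2(FPKM + 1) scale for the 6 tested members, 1 point per clone (circles, clone 6; triangles, clone 12). Aldh2 lies at -0.75 and -1.10, and Aldh3a1 at 0.67 in clone 6 and -0.15 in clone 12.

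Over the 6 tested members the median log2 difference was 0.08, against 0.00098 over all 11346 genes tested. With NR6A1, 2 of the 6 were lower in both clones, as were 29.4% of all genes tested. A further 1 was higher in both, as were 28.9%, and 3 went opposite ways. Of the 6, 1 (Aldh2) had both NR6A1 values below both vector values, as had 10.7% of all genes tested, and none had both above, as had 9.68%. Aldh2 was also the 1 member at least 1.5-fold lower in both clones, where 1.02% of all genes were. The members were chosen in this contrast, so these shares are printed for scale and support nothing about the family.

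The summed level of the family followed that of Aldh2. The 10 members summed to 207 and 227 FPKM in the NR6A1 libraries of clone 6 and clone 12, against 285 and 374 FPKM in the vector libraries. Aldh2 made up 61.3% and 54.7% of that sum with NR6A1, against 75.2% and 71.8% with vector. Without Aldh2 the other 9 members summed to 79.9 and 103 FPKM with NR6A1, against 70.6 and 106 FPKM with vector, values that overlap between the viruses. Among all genes of a library, Aldh2 ranked 864 and 892 by FPKM with NR6A1, against 473 and 369 with vector.

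**Figure D3:**
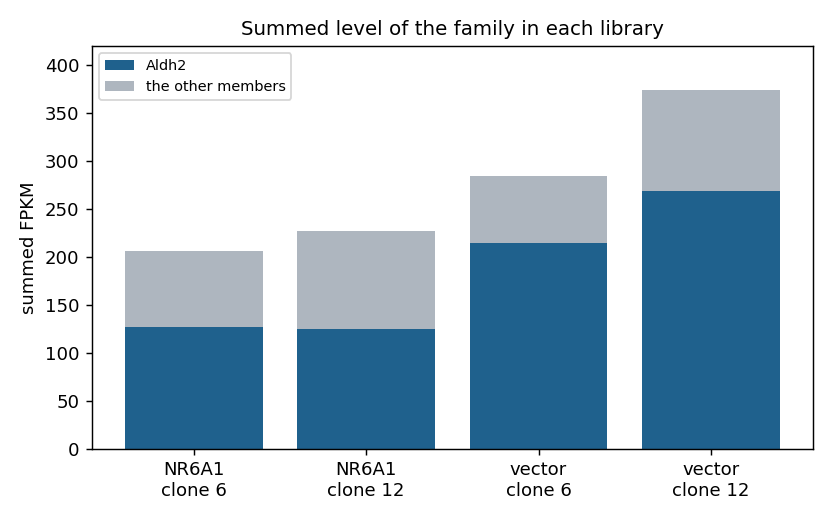
Summed FPKM of the 10 members in each library (bars from 0), split into Aldh2 and the other 9 members. The NR6A1 bars reach 207 and 227 FPKM and the vector bars 285 and 374 FPKM, and the grey part does not separate the viruses.

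The difference between the clones was not the contrast used to choose the members and was tested. Earlier results of the same 4 libraries were known, however, so its p-values are not free of that choice. At a limma adjusted p of 0.05 over all genes tested, 2 of the 6 tested members were higher in clone 12 than in clone 6, where 11.5% of all genes tested were, and 0 were lower, where 10.5% were. Without a threshold, 5 of the 6 were higher in clone 12 with both viruses, as were 43.9% of all genes tested. The 2 that passed were Aldh3a1 and Aldh3a2, which encode enzymes of the same subfamily and are direct neighbours on chromosome 11 in the RefSeq annotation. Aldh3a1 was at 19.1 FPKM in clone 12 and 6.35 FPKM in clone 6 with NR6A1, and at 21.3 FPKM in clone 12 and 3.63 FPKM in clone 6 with vector. Its log2 difference was 1.86 ± 0.22 (SE, limma adjusted p = 0.0227, higher with both viruses). Aldh3a2 was at 21.3 FPKM in clone 12 and 14.0 FPKM in clone 6 with NR6A1, and at 21.97 FPKM in clone 12 and 14.4 FPKM in clone 6 with vector. The clone ratio of Aldh3a2 was 1.52 with either virus, a log2 difference of 0.57 ± 0.07 (SE, limma adjusted p = 0.0244).

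With 1 library left out, Aldh3a1 kept its call in 1 of 4 fits and Aldh3a2 in 0 of 4. In these fits, which have no virus block, the limma adjusted p of Aldh3a1 ran from 0.0200 (NR6A1 library of clone 6 omitted) to 0.180 (vector library of clone 12 omitted), and that of Aldh3a2 from 0.0518 to 0.189. With no filter on low genes the limma adjusted p was 0.0863 for Aldh3a1 and 0.0802 for Aldh3a2.

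The other 4 tested members did not pass between the clones. Their log2 differences, clone 12 minus clone 6, were 0.23 ± 0.08 for Aldh7a1 (limma adjusted p = 0.122), 0.18 ± 0.09 for Aldh4a1 (0.218), 0.15 ± 0.11 for Aldh2 (0.370) and 0.12 ± 0.09 for Aldh9a1 (0.362), all with SE. For Aldh2 the sign turned in the fits that omitted the vector library of clone 12 (-0.40) or that of clone 6 with NR6A1 (-0.23). A p above the threshold does not show that the clones were alike.

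**Figure D4:**
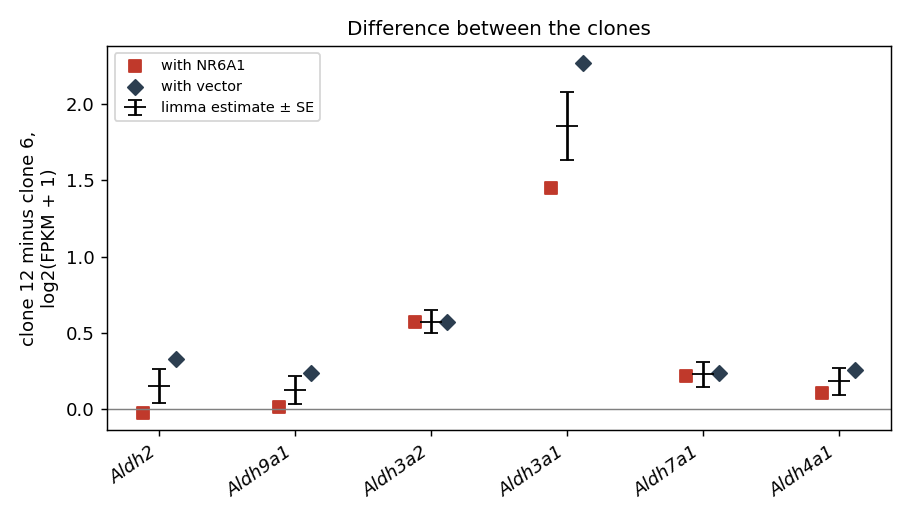
Clone 12 minus clone 6 on the log2(FPKM + 1) scale for the 6 tested members, with NR6A1 (red squares) and with vector (dark diamonds), and the limma estimate with its SE (black). Aldh3a1 (1.86) and Aldh3a2 (0.57) have the largest estimates, and the 2 points of Aldh3a2 lie at the same height.

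For the 3 most abundant members, the genes with the most similar pattern were taken by the smallest Euclidean distance between centred log2(FPKM + 1) values over the 4 libraries, among 9294 genes averaging 5 FPKM or more. For Aldh2 they were BC046404 (distance 0.22), Cpt1a (0.24), which brings long-chain fatty acids into mitochondria, and the mesenchymal transcription factor gene Osr1 (0.26). Cpt1a was at 9.52 and 7.89 FPKM in the NR6A1 libraries of clone 6 and clone 12, against 14.8 and 16.7 FPKM in the vector libraries. For Aldh9a1 they were the ribosomal protein gene Rpl5 (0.011), Snx21 (0.012) and Cul7 (0.014). For Aldh3a2 they were 8430410K20Rik (0.027), the syntenin gene Sdcbp (0.035) and the tyrosyl-tRNA synthetase gene Yars (0.042). Distances among so few libraries describe these libraries only, and flat patterns such as that of Aldh9a1 have many close neighbours.

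Of the 10 further aldehyde dehydrogenase genes, 6 were tested and none passed limma in either direction between the viruses at an adjusted p of 0.05, where 0.0353% of all genes tested did. At an unadjusted p under 0.05 there were 0 of the 6, where 8.48% of all genes tested were. With NR6A1, 2 were lower in both clones, as were 29.4% of all genes tested, and 1 was higher in both, as were 28.9%. Their median log2 difference was -0.01. Aldh18a1, which starts proline synthesis, was at 87.6 and 97.6 FPKM with NR6A1, against 92.0 and 112 FPKM with vector, second in level to Aldh2 in the family. Aldh1l2, of mitochondrial folate metabolism, was at 67.6 and 64.3 FPKM with NR6A1, against 70.7 and 61.9 FPKM with vector. Between the clones 0 of the 6 passed limma as higher in clone 12, where 11.5% of all genes tested did. As lower in clone 12, 1 passed, where 10.5% did. That gene was Aldh5a1, of GABA breakdown, picked for its values. It was at 1.32 FPKM in clone 12 and 3.70 FPKM in clone 6 with NR6A1. With vector it was at 1.43 FPKM in clone 12 and 3.64 FPKM in clone 6 (log2 difference -0.97 ± 0.14, SE, limma adjusted p = 0.0273).

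Retinoid genes were read beside the retinaldehyde dehydrogenases. No gene of the 4 retinoid lists passed limma between the viruses, with 4 of 7 binding and storage genes, 8 of 11 retinol dehydrogenases and reductases, 4 of 6 receptors and 0 of 3 retinoic acid hydroxylases tested. An unadjusted p under 0.05, reached by 8.48% of all genes tested, was found for 2 of 4 receptors, 1 of 8 dehydrogenases and 0 of 4 binding genes. The median log2 difference was 0.16 for binding genes, -0.02 for dehydrogenases and 0.21 for receptors. Between the clones, 1 of the 4 binding genes passed limma as higher in clone 12 and 2 as lower. Of the 8 dehydrogenases 1 passed as higher and 2 as lower, and of the 4 receptors 0 and 1. Over all genes tested 11.5% passed as higher and 10.5% as lower. Clone calls of listed genes were not read in fits with a library left out. Fabp5, which binds fatty acids and retinoic acid, was at 277 and 176 FPKM with NR6A1, against 305 and 148 FPKM with vector, and was lower in clone 12 by a log2 difference of -0.85 ± 0.12 (SE, limma adjusted p = 0.0273). Crabp2, which carries retinoic acid to the nucleus, was at 1.49 and 14.9 FPKM with NR6A1, against 0.528 and 17.2 FPKM with vector, and followed the clone (3.12 ± 0.25 log2 units higher in clone 12, SE, limma adjusted p = 0.0154). Crabp1, its paralogue, picked for its values, was at 0.630 FPKM in clone 12 and 8.85 FPKM in clone 6 with NR6A1, and at 0.402 FPKM in clone 12 and 3.88 FPKM in clone 6 with vector (-2.20 ± 0.25, SE, limma adjusted p = 0.0210). The dehydrogenases with the highest mRNA were Dhrs4 (30.2 and 18.2 FPKM with NR6A1, against 22.1 and 17.1 with vector) and Rdh11 (14.6 and 16.6 FPKM with NR6A1, against 16.2 and 15.4 with vector). Of the receptors, Rarg was at 57.5 and 63.8 FPKM with NR6A1, against 47.2 and 54.9 FPKM with vector, and Rxrb at 32.7 and 36.6 FPKM with NR6A1, against 26.9 and 38.4 FPKM with vector. The 3 Cyp26 genes, which clear retinoic acid, summed to 1.97 FPKM or less.

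Enzymes that make or reduce aldehydes were also taken as lists, and none of their tested genes passed limma between the viruses, with 4 of 11 reductase genes, 1 of 8 fatty aldehyde genes and 2 of 9 amino acid and amine genes at an unadjusted p under 0.05 (8.48% of all genes tested). Of 11 tested alcohol dehydrogenases, aldo-keto and carbonyl reductases 8 were lower in both clones, as were 29.4% of all genes tested, and 1 was higher in both, as were 28.9%. The median log2 difference was -0.21. Akr1a4, an aldehyde reductase, was at 511 and 550.0 FPKM with NR6A1, against 499.8 and 517 FPKM with vector, and the formaldehyde-clearing Adh5 at 81.5 and 91.4 FPKM with NR6A1, against 83.7 and 99.7 FPKM with vector. The aldo-keto reductase gene Akr1b8, picked for its values, had 25.7 and 39.2 FPKM with NR6A1, against 47.4 and 55.2 FPKM with vector (log2 difference -0.67 ± 0.12, SE, limma adjusted p = 0.325). The median was -0.10 over 8 genes of fatty aldehyde and ether lipid enzymes, among them the sphingosine phosphate lyase Sgpl1 at 49.3 and 48.3 FPKM with NR6A1, against 46.7 and 46.6 with vector, and Gnpat, of ether lipid synthesis, at 40.6 and 44.4 FPKM with NR6A1, against 41.95 and 43.9 with vector. It was -0.0090 over the 9 tested of 14 listed genes of the amino acid and amine pathways that feed Aldh4a1, Aldh7a1 and Aldh9a1. There the ornithine enzyme gene Oat, at 78.6 and 81.0 FPKM with NR6A1, against 80.9 and 76.8 FPKM with vector, had the highest mRNA level. In the same list Aass, Tmlhe and Bbox1 were listed at 0 in every library and Chdh did not exceed 0.000623 FPKM. That median therefore does not cover them.

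**Figure D5:**
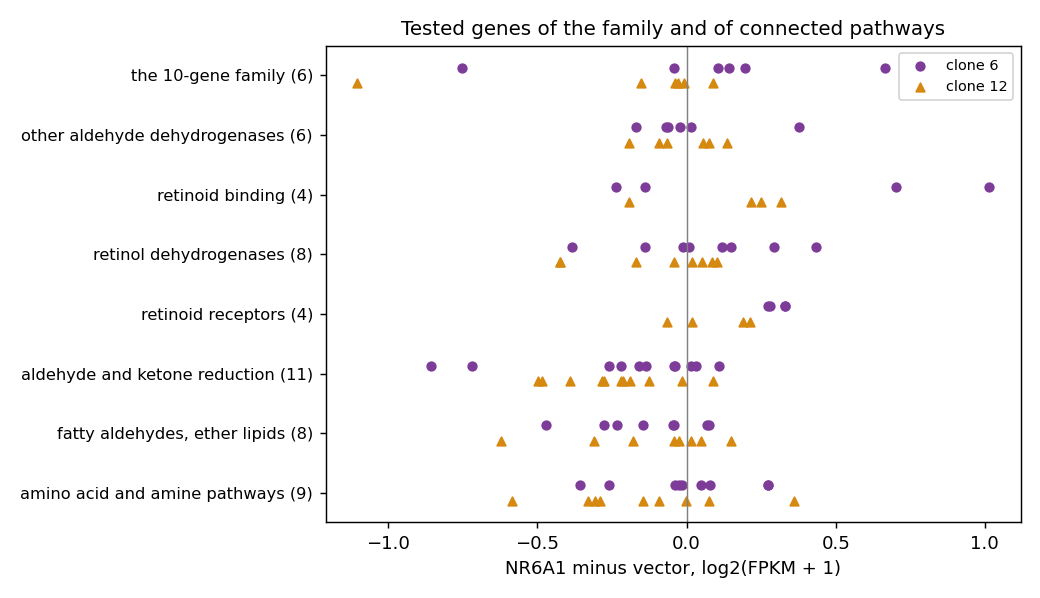
NR6A1 minus vector on the log2(FPKM + 1) scale for the tested genes of the family and of 7 connected lists, 1 point per gene and clone (circles, clone 6; triangles, clone 12; numbers of genes in parentheses). The points of Aldh2 (-0.75 and -1.10) are the lowest in the top row. Of the 11 reductase genes 8 lie below 0 in both clones, as do 29.4% of all genes tested. Of the 4 receptors 3 lie above 0 in both, as do 28.9% of all genes tested.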

How the data were processed

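The authors deposited 1 FPKM value per gene symbol and library. The submitters' processing notes name the build mm9 and the tools Cufflinks 1.0.3 and TopHat 1.2.0. The annotation and strand setting, not given in the sources used here, bear on how near-identical or overlapping genes share reads. Values were tested as log2(FPKM + 1), which understates changes of low genes, for the 11346 genes averaging 1 FPKM or more, by limma 3.58.1 in R 4.3.3 (two-sided, mean-variance trend, Benjamini-Hochberg adjusted p over all tested genes, threshold 0.05), for virus with clone as a block and for clone with virus as a block. Each line received both viruses, per the labels' protocols, so libraries pair by clone; the clone difference correlated across genes between viruses with r = 0.628 (genes are not independent replicates). With 2 libraries a group an exact permutation test cannot go below p = 0.333, so none was run. The depth came from 1818 genes with 1 annotated GENCODE transcript of at least 1500 bases; 49.1% to 52.8% of values under 10 inferred reads lay within 0.1 of a whole read. Named beside the members were, from each list, tested genes past the threshold or at least 2-fold changed on the log2(FPKM + 1) scale in one direction in both clones (none of the tested genes) and the 2 with the highest mean FPKM; the values of 1 gene so named are not reported here. Members, lists and tests were chosen with earlier results of these data known. Alternatives were other pseudocounts, filters, scalings, priors and thresholds, no block, and each library left out. Short RNA genes are microRNA, small nucleolar and similar genes, by symbol (198 tested). Removing short RNA genes together with the block was added after seeing the data.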

Additional observations from a re-analysis of the deposited data

Results flagged for a closer look

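The following genes were higher with NR6A1 in one clone and lower in the other. With 1 library per clone and virus, the difference between clones was not tested. Of all genes tested, 29.4% were lower with NR6A1 in both clones and 28.9% higher in both, so opposite signs were not particular to these genes. Values are the log2(FPKM + 1) difference, NR6A1 minus vector, in clone 6 minus that in clone 12. Among the members it was 0.817 for Aldh3a1, 0.224 for Aldh9a1, 0.151 for Aldh4a1 and -0.200 for Aldh1a1. In clone 12 alone, NR6A1 minus vector was only -0.028 for Aldh9a1 and -0.0078 for Aldh4a1. Of the connected genes, only those named above were screened. Among them the difference between the clones was 0.895 for Crabp2, 0.339 for Rxrb, -0.388 for Fabp5 and -0.242 for Rdh11. It was -0.117 for Aldh1l2, -0.116 for Oat and -0.0602 for Gnpat. Other tested genes of those lists also went opposite ways, among them Rbp4 (-0.24 in clone 6 and 0.32 in clone 12) and Smox (0.27 and -0.15). No group held enough libraries for a check of single libraries that stand apart.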

How the results depend on the processing

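The number of genes past the threshold between NR6A1 and vector was 4, and 4 also with no replicate block. It was 7 with a pseudocount of 5, 2 with no filter, 38 with a robust prior, 25 at a threshold of 0.1 and 51 without short RNA genes; without short RNA genes and without the block it was 0 (147 at an unadjusted p under 0.05). With each library left out, in fits without the clone block, it was 0 (97 to 300 at an unadjusted p under 0.05 in limma). Between clone 12 and clone 6 it was 2490; it was 0 with no filter (5360 at an unadjusted p under 0.05), 1581 with no mean-variance trend, 4163 at a threshold of 0.1, and 45 to 1081 with each library left out. The cause of these changes was not tested, except that fits with fewer libraries have fewer samples. With either library of a clone left out and the clone block kept, the difference of a member is that of the other clone. Aldh2 was then at -1.10 or -0.75. Its clone difference of 0.15 ran from -0.40 to 0.70 with a library left out. Low members rest on a few reads, which limits any difference there.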
